A study of Mus musculus with 20 samples.

Results

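Acute loss of the histone demethylase genes Kdm6a and Kdm6b was examined in the mouse jejunal epithelium, 7 days after ablation was induced, in 12 of the 20 RNA-seq samples of the series. The samples were chosen by their labels and not by any measured value. They comprised 5 controls, labelled Control/WT, and 7 double knockout (DKO) samples, labelled as a knockout of Kdm6a and Kdm6b. The submitters describe the cells as crypt epithelium and each sample as a biological replicate with an animal number of its own, from female mice. The labels used here name neither the recombinase, nor the inducing agent, nor the age of the animals. The remaining samples belong to a time point of 5 months, which was normalized in a table of its own and is not compared here.

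Kdm6a and Kdm6b remove methyl groups from lysine 27 of histone H3, a mark that Polycomb repressive complex 2 deposits and that accompanies gene silencing. Kdm6a is also a subunit of the MLL3/4 methyltransferase complexes at enhancers. In the small intestine, stem cells and Paneth cells lie at the crypt base, dividing progenitors lie above them, and absorptive and secretory cells leave the crypt for the villus.

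Reads in genes numbered 15435118 to 26549494 per control and 19134272 to 26586045 per DKO sample. DKO 3 and DKO 4 stood apart: on the first principal component (38.3% of the variance) they lay at 34 and 45.9, and the other 10 samples between -28.0 and 12.1. The 10 epithelial defining genes summed to 11468 to 12268 CPM (counts per 1000000 reads in genes) in controls and 12104 to 12895 CPM in DKO samples. Summed stromal, muscle, endothelial and nerve markers (26 genes) ran from 64.1 to 262 CPM in controls and from 53.4 to 848 CPM in DKO samples, with DKO 3 highest. Immune cell markers (29 genes) summed to 614 to 1143 CPM in controls and 558 to 1642 CPM in DKO samples, with DKO 4 lowest and DKO 3 highest. None of these markers was at 0 in every sample of a group. The part of other cell types in the results below was not tested. Values without DKO 3 and DKO 4 are given for some, not all, of the named genes whose call or size changed without them.

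The targeted genes were measured first. Kdm6a read 71.7, 57.7, 72.6, 67.8 and 60.8 CPM in controls 1 to 5, and 38.5, 41.6 and 45.7 CPM at the lowest, median and highest DKO sample. Kdm6b read 103, 104, 91.2, 109.3 and 99.1 CPM in the controls and 59.8, 70.9 and 81.1 CPM in the DKO samples, given in the same order. Neither gene's groups overlapped. The differences, taken as DKO samples less controls in log2(CPM + 1), the scale used throughout, with standard errors, were -0.62 ± 0.07 (adjusted p = 0.000145) and -0.53 ± 0.08 (adjusted p = 0.00132). Whole-gene counts include reads outside a deleted exon, so the remaining level does not measure the remaining protein.

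Of 13601 genes tested with limma, 2035 (15.0%) passed an adjusted p of 0.05. Among them, 394 genes (2.90% of those tested) were higher and 1641 (12.1%) lower in DKO samples. The split depended on scaling: higher genes made up 19.4% of calls on the deposited CPM and 37.0% after TMM scaling. They made up 38.2% in edgeR and 44.4% in DESeq2, which changed the test as well as the scaling, DESeq2 also testing 15617 genes. The median difference over all tested genes was -0.07 on the deposited CPM and 0.01 after TMM scaling, so small falls are read against that shift.

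Most differences were small. The 394 higher genes had a median rise of 0.41 (interquartile range 0.28 to 0.59), and 25 of them reached 1 on the log2 scale. The 1641 lower genes had a median size of 0.46 (interquartile range 0.31 to 0.67), and 138 reached 1. The groups did not overlap in 1060 tested genes (7.79%), with DKO samples above in 169 (1.24%) and below in 891 (6.55%). Among called genes, 159 of the higher and 855 of the lower had groups that did not overlap. In 525 called genes (25.8%) the difference exceeded the wider of the ranges within a group.

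**Figure D1:**
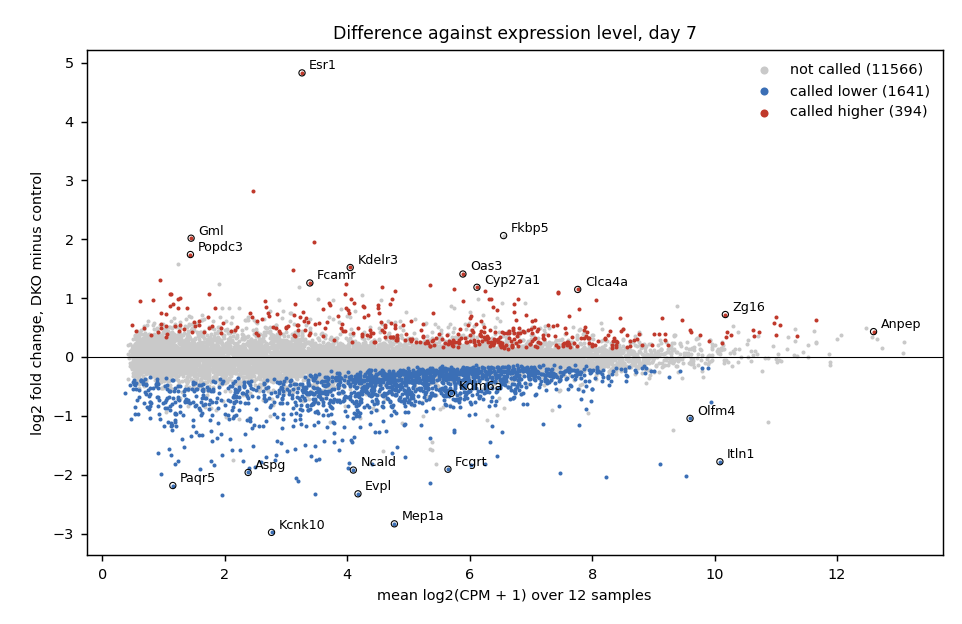
Difference between DKO and control samples (log2 scale) against the mean level of each tested gene, with called genes in colour. Genes called lower outnumber those called higher, 1641 against 394, and large falls appear at low levels (Paqr5) as well as high ones (Itln1).

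Genes that copy DNA fell together. Of the 40 DNA replication genes tested, 40 were called lower, beside 12.1% over all genes. Their median was -0.62 (-0.54 after TMM scaling), beside -0.07 over all genes. Groups did not overlap in 38 of them, beside 7.79% over all genes. Mcm3, a subunit of the replicative helicase, read 73.7, 60.9, 64.4, 60.5 and 70.4 CPM in controls and 28.9, 38.1 and 52.0 CPM at the lowest, median and highest DKO sample. Its difference was -0.79 ± 0.12 (adjusted p = 0.000853). Gins1, a subunit of the GINS complex of the same helicase, differed by -0.82 ± 0.12 (adjusted p = 0.000860). Tk1, the thymidine kinase of dividing cells, read 46.9, 45.5, 48.5, 49.1 and 38.8 CPM in controls and 18.5, 21.5 and 30.1 CPM in DKO samples, a difference of -0.94 ± 0.11 (adjusted p = 0.000154). In each of these genes every DKO sample lay below every control. In bulk samples, fewer dividing cells and less of these RNAs per cell cannot be told apart.

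Mitotic genes moved likewise, with 37 of 43 called lower (86.0%, beside 12.1% over all genes) and a median of -0.60. Spc25, a kinetochore protein, read 18.6, 16.2, 21.1, 18.4 and 16.1 CPM in controls and 7.82, 9.09 and 12.1 CPM in DKO samples, a difference of -0.86 ± 0.11 (adjusted p = 0.000342). Ncapg, a condensin subunit, read 31.3, 20.3, 35.8, 33.7 and 27.8 and 13.0, 17.6 and 21.5 CPM and differed by -0.74 ± 0.15 (adjusted p = 0.00492). DNA repair had 27 of 39 genes lower, with a median of -0.42. Uhrf1, which brings DNA methyltransferase to replicating DNA, differed by -0.70 ± 0.09 (adjusted p = 0.000391). Among G1 cyclins, kinases and E2F factors 15 of 31 were lower, with Mycn at -1.21 ± 0.26 (adjusted p = 0.00740) and E2f7, a repressor of E2F targets, at -0.84 ± 0.13 (adjusted p = 0.000978).

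Short stretches before the start sites of replication and mitosis genes are shown because these lists hold the largest counts of falls. They come from RefSeq on GRCm38.p6, while the deposited table was built on mm9. Windows of 250 bases before to 50 after the first listed start were searched on both strands, and capitals mark the E2F-type letters in Mcm6 and Mcm7 and the cell cycle homology letters in the other genes. The Mcm7 stretch also holds ttcgaa, left in lower case. Mcm6, Mcm7, Cdk1 and Kif11 were chosen for display after their values were seen. The E2F-type letters TTTCCCGC or TTTGGCGC occurred in 3.0% of all 10782 promoters with a sequence, in 12 of 31 (38.7%) of called replication genes and in 2 of 31 (6.45%) of called mitosis genes. The letters TTTGAA or TTCGAA, of the cell cycle homology type, occurred in 14% of all promoters, in 24 of 31 (77.4%) of called mitosis genes and in 6 of 31 (19.4%) of called replication genes. They also occurred in 7 of 19 (36.8%) of called interferon-stimulated genes and in 3 of 10 (30%) of called Paneth cell products. The shares were 16.9% over all genes called lower and 12.1% over all genes called higher. A match describes letters, not a bound site.
Mcm6, chr1:128359736-128359835, minus strand, bases 130 to 31 before the start: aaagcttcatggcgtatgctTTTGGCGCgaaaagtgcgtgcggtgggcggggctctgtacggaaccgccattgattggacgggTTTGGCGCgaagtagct
Mcm7, chr5:138172013-138172073, minus strand, bases 190 to 130 before the start: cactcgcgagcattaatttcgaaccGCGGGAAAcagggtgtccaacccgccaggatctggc
Cdk1, chr10:69352913-69353002, minus strand, bases 90 to 1 before the start: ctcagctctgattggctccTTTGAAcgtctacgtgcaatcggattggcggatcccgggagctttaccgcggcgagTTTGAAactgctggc
Ncapg, chr5:45669865-45669924, plus strand, bases 60 to 1 before the start: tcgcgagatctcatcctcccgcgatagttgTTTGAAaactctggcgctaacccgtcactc
Kif11, chr19:37376322-37376381, plus strand, bases 60 to 1 before the start: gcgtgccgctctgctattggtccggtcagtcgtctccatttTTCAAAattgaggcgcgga
The 4 genes chosen for display differed by -0.64 ± 0.11 (adjusted p = 0.00163) for Mcm6, -0.68 ± 0.07 (adjusted p = 8.79e-05) for Mcm7, -0.65 ± 0.11 (adjusted p = 0.00157) for Cdk1 and -0.64 ± 0.14 (adjusted p = 0.00916) for Kif11.

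Smaller shares of other growth and gene expression lists were called lower, and some of these counts depended on scaling. Over all 13601 tested genes, 12.1% were lower and 2.90% higher on the deposited CPM. After TMM scaling 1124 of them were lower and 660 higher. Nuclear pore genes were lower in 18 of 30, with a median of -0.33, and Nup85 differed by -0.58 ± 0.10 (adjusted p = 0.00249). Nucleotide synthesis genes were lower in 17 of 29, and in 13 after TMM scaling. Mthfd2, a mitochondrial folate enzyme, differed by -0.83 ± 0.13 (adjusted p = 0.00150). Splicing genes were lower in 18 of 32 on the deposited CPM but in 9 after TMM scaling and 8 in edgeR. Mitochondrial ribosome genes were lower in 13 of 58 (22.4%), and in 3 after TMM scaling. For tRNA synthetases and translation factors the count went from 7 of 31 (22.6%) to 0 under TMM scaling and in edgeR, so these calls rest on the scaling. Mars, a methionine tRNA synthetase, differed by -0.49 ± 0.11 (adjusted p = 0.00902), with an adjusted p of 0.0522 after TMM scaling. Proteasome and ubiquitin genes counted 3 higher (7.89%) and 7 lower (18.4%) of 38, against 3 higher and 0 lower after TMM scaling. Oxidative phosphorylation had 1 of 57 genes higher (1.75%) and none lower in limma, with a median of 0.00.

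**Figure D2:**
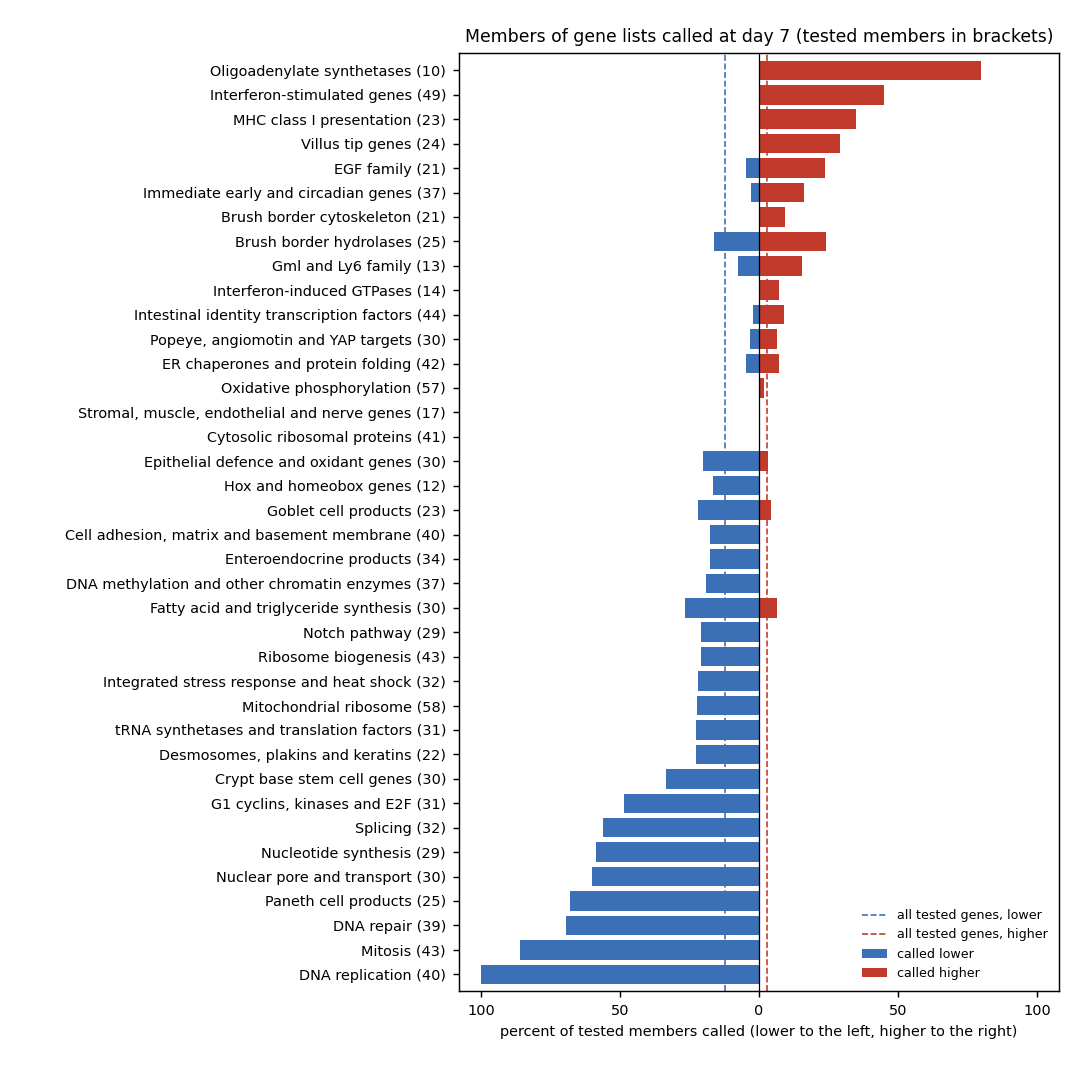
Share of tested members called higher (right) or lower (left) in DKO samples for gene lists of at least 10 tested members, with dashed lines at the shares over all tested genes (12.1% lower, 2.90% higher), showing the 22 lists at the lower end and the 16 at the higher end. DNA replication and mitosis stand at one end and oligoadenylate synthetases and interferon-stimulated genes at the other.

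The largest falls with groups that did not overlap (25 genes) ran from -2.98 to -1.77 on the log2 scale. Single channels and receptors were among them, although as lists 4 of 29 channels (13.8%) and 8 of 50 receptors (16%) were lower, beside 12.1% over all genes. Kcnk10, a two-pore-domain potassium channel, read 22.4, 20.8, 22.5, 21.5 and 21.0 CPM in controls and 1.40, 1.78 and 2.45 CPM in DKO samples, a difference of -2.98 ± 0.11 (adjusted p = 1.82e-09). Kcns3, a modifying subunit of voltage-gated potassium channels, read 1.38, 5.46, 9.39, 4.75 and 1.65 and 0.0857, 0.326 and 0.685 CPM and differed by -1.82 ± 0.31 (adjusted p = 0.00209). The controls of Kcns3 spread widely while those of Kcnk10 did not. Adora1, an adenosine receptor, read 6.84, 6.10, 7.77, 6.19 and 5.36 CPM in controls and 0.839, 1.03 and 1.51 CPM in DKO samples, a difference of -1.83 ± 0.11 (adjusted p = 8.03e-07). Paqr5, a membrane progestin receptor, read 5.25, 4.29, 4.79, 5.26 and 2.71 and 0.0485, 0.137 and 0.373 CPM and differed by -2.18 ± 0.14 (adjusted p = 1.01e-06). Its DKO values all lay under the 0.5 CPM filter, so it was tested only through the controls and its groups could not overlap. Outside those 25, Otop3, a proton channel, overlapped between groups, at 9.46, 20.8, 29.6, 21.9 and 21.4 and 0.606, 3.18 and 9.60 CPM, and differed by -2.05 ± 0.41 (adjusted p = 0.00511). Ffar2, a receptor for short-chain fatty acids, differed by -1.17 ± 0.16 (adjusted p = 0.000513).

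Other large falls were in single genes of calcium binding, cell junctions and antibody transport. Ncald, the neuronal calcium sensor neurocalcin delta, read 37.2, 38.6, 39.7, 34.1 and 32.2 CPM in controls and 7.51, 8.2 and 13.4 CPM in DKO samples, a difference of -1.92 ± 0.12 (adjusted p = 1.01e-06). Ocm, the parvalbumin relative oncomodulin, read 3.05, 3.92, 3.95, 4.45 and 3.77 and 0.0457, 0.326 and 0.857 CPM and differed by -1.77 ± 0.14 (adjusted p = 8.67e-06). Both genes were low in every DKO sample. Evpl, a plakin of the cornified envelope and desmosomes, read 39.9, 56.5, 46.8, 47.4 and 37.8 CPM in controls and 5.59, 9.25 and 11.1 CPM in DKO samples, a difference of -2.33 ± 0.15 (adjusted p = 1.3e-06). Its partner Ppl differed by -0.92 ± 0.10 (adjusted p = 0.000119) and the desmosomal plakophilin Pkp1 by -1.37 ± 0.18 (adjusted p = 0.000313). The desmosome list as a whole had 5 of 22 genes lower (22.7%, beside 12.1% over all genes) and a median of 0.03. Fcgrt, the neonatal Fc receptor that carries antibody across epithelia, read 100.4, 104, 103, 116 and 113 CPM in controls and 21.9, 24.2 and 44.9 CPM in DKO samples. DKO 3 and DKO 4 were the highest DKO samples for Fcgrt, at 44.9 and 39.4 CPM. The difference was -1.91 ± 0.16 (adjusted p = 1.73e-05), and without those samples -2.14 (adjusted p = 4.03e-10). C4bp, an inhibitor of complement, read 2.80, 4.44, 3.82, 3.26 and 2.65 CPM in controls, and had no reads in DKO 1 and DKO 4 and at most 0.320 CPM in the rest, with a difference of -1.99 ± 0.12 (adjusted p = 8.32e-07). As every DKO value lay under the 0.5 CPM filter, C4bp was tested only through the controls and its groups could not overlap.

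Enzymes and transporters made up much of the remaining falls. Mep1a, a brush border metalloprotease, differed by -2.84 ± 0.24 (adjusted p = 1.61e-05) and Xpnpep2, an aminopeptidase, by -1.69 ± 0.25 (adjusted p = 0.000838). Aspg, an asparaginase, read 12.4, 9.87, 13.4, 10.3 and 7.49 CPM in controls and 1.22, 2.01 and 2.70 CPM in DKO samples, a difference of -1.96 ± 0.16 (adjusted p = 9.75e-06). Mettl7b, a methyltransferase, read 25.5, 35.7, 35.7, 34.9 and 33.4 and 4.15, 9.42 and 15.2 CPM and differed by -1.80 ± 0.25 (adjusted p = 0.000502). These groups were separate in every sample. Akr1c14, a steroid reductase, differed by -1.88 ± 0.35 (adjusted p = 0.00337), and by -1.39 (adjusted p = 0.000114) without DKO 3 and DKO 4. Aqp3, a glycerol and water channel, differed by -2.32 ± 0.34 (adjusted p = 0.000823), and Slc14a1, a urea transporter, by -1.79 ± 0.38 (adjusted p = 0.00713). Fmo1, a flavin monooxygenase, differed by -1.58 ± 0.24 (adjusted p = 0.00100) and Sult1c2, a sulfotransferase, by -1.18 ± 0.15 (adjusted p = 0.000273). Ros1, a receptor tyrosine kinase, differed by -1.88 ± 0.23 (adjusted p = 0.000204), and Sfrp5, a secreted Wnt inhibitor, by -1.90 ± 0.22 (adjusted p = 0.000189). Less studied genes were Tldc2 at -1.75 ± 0.12 (adjusted p = 2.76e-06) and 2310007B03Rik at -2.34 ± 0.17 (adjusted p = 4.36e-06).

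Itln1, Mptx2, Clps and Tmed6 were lowest in DKO 3 and DKO 4. Itln1, a lectin that binds microbial sugars, read 1535, 3337, 2408, 2261 and 1985 CPM in controls and 205, 786 and 1177 CPM in DKO samples. Its difference was -1.78 ± 0.37 (adjusted p = 0.00660), and -1.30 (adjusted p = 0.000869) without DKO 3 and DKO 4. Mptx2, a pentraxin of Paneth cells, differed by -1.97 ± 0.36 (adjusted p = 0.00304) and by -1.48 (adjusted p = 0.000123) without them. Clps, the pancreatic colipase gene, differed by -2.14 ± 0.48 (adjusted p = 0.00927) and by -1.52 (adjusted p = 0.00234). Tmed6, a cargo receptor of the early secretory route, differed by -1.77 ± 0.25 (adjusted p = 0.000624). Ang4, Defa17 and Defa30 belong to families of near-identical genes whose reads may be divided among copies. They differed by -2.04 ± 0.33 (adjusted p = 0.00156), -1.83 ± 0.44 (adjusted p = 0.0131) and -2.03 ± 0.49 (adjusted p = 0.0141). Paneth cell products as a list had 17 of 25 genes lower (68%, beside 12.1% over all genes) and a median of -1.41, which was -1.0 without DKO 3 and DKO 4.

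**Figure D3:**
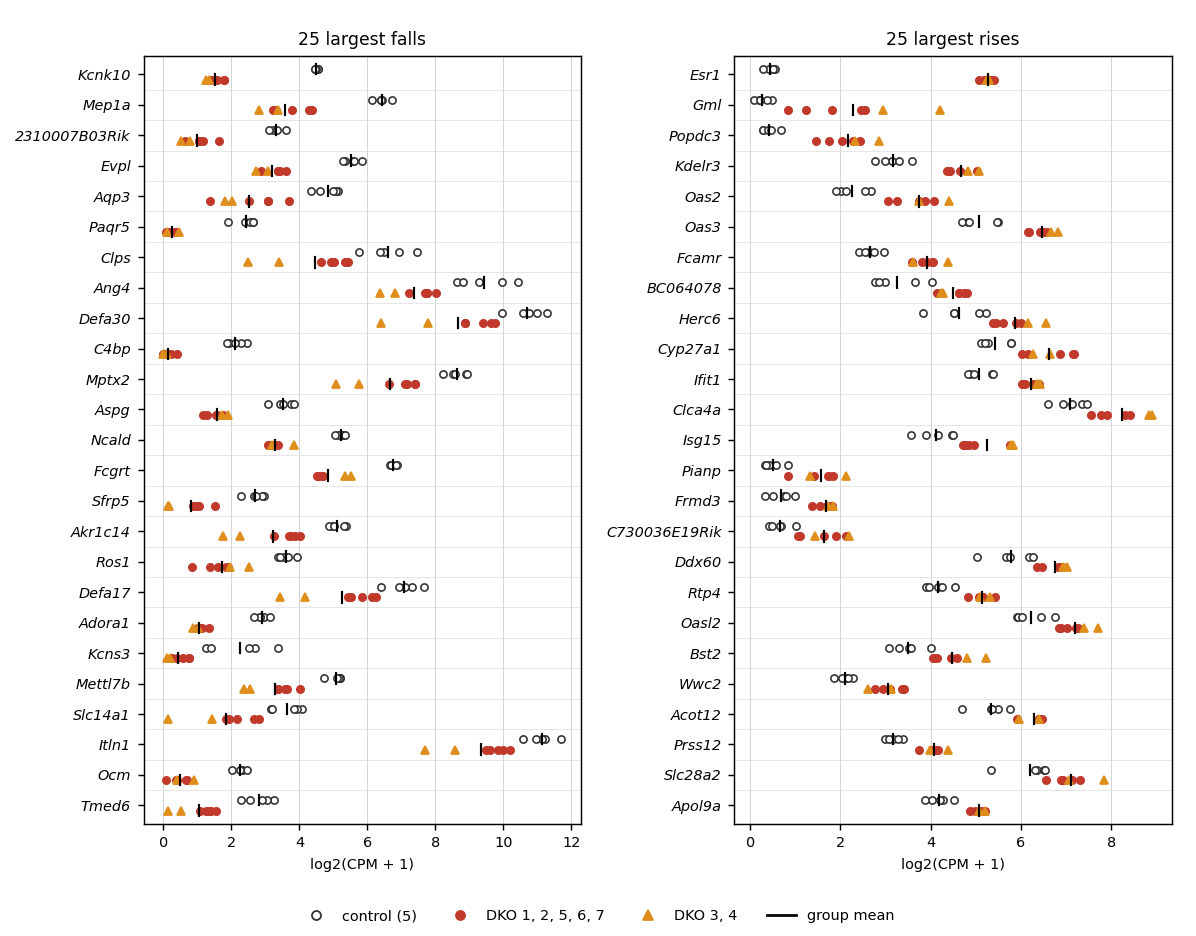
Level in log2(CPM + 1) of the 25 largest falls (left) and 25 largest rises (right) with separate groups, 1 symbol per sample: open circles for controls, filled circles for DKO samples, triangles for DKO 3 and DKO 4, and bars for group means. Kcnk10 is low to a similar degree in all 7 DKO samples, while Mptx2 and Itln1 are lowest in DKO 3 and DKO 4.

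Interferon-related genes rose. Of 10 genes of the oligoadenylate synthetase group, which sense double-stranded RNA, 8 were called higher (80%, beside 2.90% over all genes), with a median of 0.83. Without DKO 3 and DKO 4, 7 were higher and 1 lower, with a median of 0.73. Of 49 interferon-stimulated genes, 22 were higher (44.9%) and none lower, with a median of 0.37. Without DKO 3 and DKO 4, 19 were higher and 1 lower, with a median of 0.29. Over all 13477 genes tested without those samples, 394 were higher and 1311 lower. Oas2 read 5.42, 3.05, 2.72, 4.83 and 3.34 CPM in controls and 7.27, 12.4 and 20.1 CPM in DKO samples, a difference of 1.48 ± 0.22 (adjusted p = 0.000853). Oas3 read 44.3, 27.4, 25, 27.7 and 43.0 and 70, 90.2 and 113 CPM and differed by 1.41 ± 0.16 (adjusted p = 0.000147). Ifit1, which binds viral RNA, read 39.9, 28.4, 27.4, 30.1 and 40.8 CPM in controls and 64.0, 76.3 and 85.1 CPM in DKO samples, a difference of 1.15 ± 0.12 (adjusted p = 6.77e-05). Every DKO sample exceeded every control in these 3 genes. Isg15, a ubiquitin-like protein, read 21.3, 13.9, 10.9, 16.9 and 21.4 and 25.2, 30.3 and 55.7 CPM and differed by 1.12 ± 0.24 (adjusted p = 0.00755). Herc6, its ligase in mice, differed by 1.23 ± 0.24 (adjusted p = 0.00463), Rtp4 by 0.98 ± 0.12 (adjusted p = 0.000222), Ddx60 by 0.98 ± 0.19 (adjusted p = 0.00379) and Bst2, the virion tether tetherin, by 0.98 ± 0.21 (adjusted p = 0.00738). Slfn5 overlapped between groups, with control 1 highest among controls, at 10.4, 3.16, 2.72, 2.63 and 3.72 CPM in controls and 8.82, 14.1 and 48.6 CPM in DKO samples.

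Letters of the interferon response type (GAAA, any 2 bases, GAAA) are shown in promoters of 4 genes that rose, read as for the cell cycle genes. They occurred in 3.15% of all promoters, in 28 of 315 (8.89%) of genes called higher, in 26 of 1321 (1.97%) of genes called lower and in 9 of 19 (47.4%) of called interferon-stimulated genes.
Ifit1, chr19:34640769-34640828, plus strand, bases 120 to 61 before the start: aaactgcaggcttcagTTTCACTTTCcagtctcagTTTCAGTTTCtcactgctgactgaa
Isg15, chr4:156200859-156200918, minus strand, bases 100 to 41 before the start: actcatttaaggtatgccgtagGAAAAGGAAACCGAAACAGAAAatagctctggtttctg
Oas3, chr5:120777700-120777759, minus strand, bases 100 to 41 before the start: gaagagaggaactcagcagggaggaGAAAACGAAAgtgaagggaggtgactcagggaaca
Ddx60, chr8:61928017-61928086, plus strand, bases 70 to 1 before the start: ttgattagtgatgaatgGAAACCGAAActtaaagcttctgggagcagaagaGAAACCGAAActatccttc
Of the 25 largest rises with groups that did not overlap, 19 had a promoter sequence and 7 of them held these letters, against 1 of 20 for the 25 largest falls. The 7 were the 4 genes shown here, Bst2, Apol9a and Esr1, whose reads are taken up below, so this count is not independent of the interferon genes.

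Antigen presentation moved less. MHC class I genes were higher in 8 of 23 (34.8%, beside 2.90% over all genes), with a median of 0.22. Without DKO 3 and DKO 4 they were higher in 4, beside 394 of 13477 over all genes. H2-K1, a class I heavy chain with near-identical relatives, went from 1742 ± 289 to 2526 ± 303 CPM (mean ± SD, n = 5 and 7). Interferon-induced GTPases had a median of 0.53 with 1 of 14 called in limma, and a median of 0.27 with none called without DKO 3 and DKO 4. In the level by sample, the oligoadenylate synthetase list averaged 0.51 to 1.30 above the control mean in DKO samples, and -0.20 to 0.28 in controls. The interferon-stimulated list overlapped, at 0.24 to 0.87 in DKO samples and -0.21 to 0.32 in controls, with control 1 above DKO 5. Interferon-induced GTPases overlapped too, at 0.13 to 1.26 and -0.60 to 0.75, with control 1 above every DKO sample but DKO 4. By animal number, control 1 is the only control that shares a range with DKO 1, DKO 2 and DKO 7. Its interferon-stimulated list averaged 0.32, against 0.33, 0.36 and 0.57 in those samples. Its GTPase list averaged 0.75, against 0.21, 0.33 and 0.48. Its oligoadenylate synthetase list averaged 0.28, against 0.82, 0.75 and 0.87.

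Among other rises with separate groups, Esr1, the oestrogen receptor, differed by 4.83 ± 0.09 (adjusted p = 2.51e-13). Fusions of a recombinase with part of this receptor are common tools, and whether such reads contribute was not tested. Kdelr3, a receptor that returns chaperones to the endoplasmic reticulum, read 7.87, 11.1, 5.83, 6.95 and 8.81 CPM in controls and 19.6, 24 and 32.5 CPM in DKO samples, a difference of 1.52 ± 0.16 (adjusted p = 9.57e-05). Cyp27a1, a sterol hydroxylase, read 37.6, 33.9, 35.6, 53.7 and 53.7 and 64.1, 98.5 and 143 CPM and differed by 1.18 ± 0.21 (adjusted p = 0.00266). Fcamr, an Fc receptor for IgA and IgM, read 4.30, 5.16, 4.79, 6.83 and 5.68 CPM in controls and 11, 14.2 and 19.8 CPM in DKO samples, a difference of 1.26 ± 0.14 (adjusted p = 0.000153). All DKO samples lay above all controls in these genes. Clca4a, a secreted chloride channel regulator, differed by 1.15 ± 0.23 (adjusted p = 0.00544) and Acot12, a cytosolic acetyl-CoA hydrolase, by 0.95 ± 0.16 (adjusted p = 0.00180). Popdc3 differed by 1.74 ± 0.20 (adjusted p = 0.000172) and Gml by 2.02 ± 0.45 (adjusted p = 0.00882), the latter by 1.5 (adjusted p = 0.00473) without DKO 3 and DKO 4. Zg16, a goblet cell lectin, read 876, 757, 900.2, 898 and 893 and 1194, 1383 and 1569.8 CPM and differed by 0.72 ± 0.08 (adjusted p = 0.000119). Goblet cell products as a list did not rise, with 1 of 23 genes higher (4.35%), 5 lower (21.7%) and a median of -0.16. Over all genes 2.90% were higher and 12.1% lower. Prss12 differed by 0.91 ± 0.11 (adjusted p = 0.000200), Wwc2 by 0.95 ± 0.15 (adjusted p = 0.00107) and Apol9a by 0.89 ± 0.10 (adjusted p = 0.000171).

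Feedback genes of receptor tyrosine kinase signalling were among the rises. Dusp4, a phosphatase of MAP kinases, read 7.79, 9.12, 6.41, 7.42 and 8.12 CPM in controls and 13.6, 14.6 and 15.0 CPM in DKO samples, a difference of 0.81 ± 0.09 (adjusted p = 8.79e-05). Spry4, a Sprouty inhibitor, read 0.0430, 0.791, 0.324, 0.339 and 0.584 and 0.548, 1.99 and 3.30 CPM and differed by 1.07 ± 0.22 (adjusted p = 0.00541). DKO 5 was the lowest DKO sample for Spry4 and fell within the control range. Fos, an immediate early transcription factor, differed by 0.76 ± 0.15 (adjusted p = 0.00434). The EGF family list had 5 of 21 genes higher (23.8%) and 1 lower (4.76%), beside 2.90% and 12.1% over all genes. Areg, the EGF receptor ligand amphiregulin, read 8.56, 6.03, 5.38, 9.24 and 14.1 and 11.7, 14.3 and 33.4 CPM and differed by 0.88 ± 0.26 (adjusted p = 0.0335), a call that ended in 6 of 12 refits leaving out 1 sample, with an adjusted p of up to 0.104 without control 3.

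Some single genes of crypt signalling were lower. Ihh, the hedgehog ligand of the epithelium, read 72.8, 98.6, 78.4, 80.9 and 72.8 CPM in controls and 30.7, 42.7 and 66.4 CPM in DKO samples, a difference of -0.86 ± 0.15 (adjusted p = 0.00260). Bmp7, a bone morphogenetic protein, differed by -1.02 ± 0.18 (adjusted p = 0.00244). Notch4 differed by -1.0 ± 0.15 (adjusted p = 0.000791) and Nrarp, a Notch feedback inhibitor, by -0.87 ± 0.14 (adjusted p = 0.00159). By list, 6 of 29 Notch genes, 7 of 43 Wnt genes and 4 of 32 BMP and TGF-beta genes were lower, and 0, 1 and 1 higher. The shares lower were 20.7%, 16.3% and 12.5%, beside 12.1% over all genes.

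Large shifts in read share came from abundant absorptive genes. As a list, villus tip genes were higher in 7 of 24 (29.2%) and lower in none, with a median of 0.35. Crypt base stem cell genes were lower in 10 of 30 (33.3%) and higher in none, with a median of -0.41. Over all genes 2.90% were higher and 12.1% lower. Whether the share of crypt or villus cells differed between the groups was not tested. Mgam, the maltase-glucoamylase, read 1787, 1148, 1267, 1759.9 and 1959.8 CPM in controls and 1967, 2579 and 3120.4 CPM in DKO samples, a difference of 0.68 ± 0.15 (adjusted p = 0.00916). Ace, angiotensin-converting enzyme of the brush border, read 1335, 1877, 1462, 1529.7 and 1825 and 1996, 2312 and 2892 CPM and differed by 0.58 ± 0.13 (adjusted p = 0.00823). Acsl5, a fatty acid activating enzyme, went from 1431 ± 165 to 1913 ± 154 CPM, a difference of 0.42 ± 0.09 (adjusted p = 0.00589). Groups were separate in all 3. Slc5a1, the sodium glucose transporter, went from 2559.6 ± 678 to 3956 ± 891 CPM and differed by 0.63 ± 0.19 (adjusted p = 0.0410). Its call ended in 9 of 12 refits leaving out 1 sample. Anpep, aminopeptidase N, differed by 0.43 ± 0.13 (adjusted p = 0.0385), and its call ended in 6 of 12 refits. Enpep, another aminopeptidase, differed by 0.46 ± 0.12 (adjusted p = 0.0181), Ckmt1, mitochondrial creatine kinase, by 0.37 ± 0.10 (adjusted p = 0.0234), and Vil1, the microvillus protein villin, by 0.35 ± 0.09 (adjusted p = 0.0167). Leaving out control 3 alone ended all of these calls but those of Mgam, Ace and Acsl5, with adjusted p of 0.123 for Slc5a1, 0.114 for Anpep, 0.0573 for Enpep, 0.0745 for Ckmt1 and 0.0549 for Vil1. Ckmt1 also lost its call in 1 further refit. Without DKO 3 and DKO 4 the differences that were no longer called were 0.55 (adjusted p = 0.101) for Slc5a1, 0.37 (adjusted p = 0.0801) for Anpep and 0.29 (adjusted p = 0.0544) for Ckmt1.

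Among the largest losses of reads, Olfm4, a crypt base stem cell marker, read 959, 1295, 1416, 1241 and 1054 CPM in controls and 284, 714 and 766 CPM in DKO samples, a difference of -1.04 ± 0.23 (adjusted p = 0.00862). Hnrnpab, an RNA-binding protein, went from 702 ± 32.8 to 552 ± 40.5 CPM and differed by -0.35 ± 0.06 (adjusted p = 0.00224). Both were separate between groups. Ccnd2, cyclin D2, read 299, 380.4, 400.4, 354 and 341 and 49.9, 175 and 269 CPM and differed by -1.16 ± 0.32 (adjusted p = 0.0257). Oat, ornithine aminotransferase, differed by -0.76 ± 0.24 (adjusted p = 0.0484), and by -0.45 (adjusted p = 0.0175) without DKO 3 and DKO 4. Treh, the brush border trehalase, differed by -0.88 ± 0.25 (adjusted p = 0.0298). The defensin-related Gm14851 differed by -1.82 ± 0.53 (adjusted p = 0.0325), and by -1.13 (adjusted p = 0.00719) without DKO 3 and DKO 4. These last 4 calls were not stable: they ended in 3 refits for Ccnd2, 7 for Oat, 5 for Treh and 6 for Gm14851 of the 12 that left out 1 sample, with adjusted p without control 3 of 0.0701, 0.124, 0.0699 and 0.0841.

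Absorption lists held calls in both directions. Brush border hydrolases had 6 of 25 genes higher (24%) and 4 lower (16%), and transporters of sugars, amino acids and acids 6 of 35 higher (17.1%) and 8 lower (22.9%), beside 2.90% and 12.1% over all genes. Enpp7, an intestinal sphingomyelinase, differed by 0.97 ± 0.21 (adjusted p = 0.00740), and Slc51a, a subunit of the basolateral bile acid exporter, by -0.80 ± 0.13 (adjusted p = 0.00117). Pfkl, liver-type phosphofructokinase, differed by -0.59 ± 0.09 (adjusted p = 0.00103) and Me2, mitochondrial malic enzyme, by 0.42 ± 0.07 (adjusted p = 0.00217). G6pc, glucose-6-phosphatase, differed by -1.44 ± 0.31 (adjusted p = 0.00776) and Cpt1a, the gate of fatty acid oxidation, by -0.54 ± 0.12 (adjusted p = 0.00963). Fads1, a desaturase, differed by -0.80 ± 0.12 (adjusted p = 0.00102) and Lpin1, a phosphatidate phosphatase, by -0.81 ± 0.14 (adjusted p = 0.00216). Xenobiotic phase I enzymes had 3 of 45 higher and 5 lower (11.1%) with a median of -0.22, against 6 and 7 with a median of 0.04 without DKO 3 and DKO 4. Over all 13477 genes tested without those samples, 394 were higher and 1311 lower. Cyp4a10 differed by -1.56 ± 0.31 (adjusted p = 0.00524).

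Several further calls changed when single samples were left out. Slc5a8, a carrier of short-chain acids, differed by -1.75 ± 0.53 (adjusted p = 0.0417), with DKO 4 at 34 CPM inside the control range. Slc6a20a, a carrier of imino acids, differed by -1.81 ± 0.57 (adjusted p = 0.0467), with DKO 4 lowest at 6.25 CPM. Without DKO 3 and DKO 4 these differences were -2.41 (adjusted p = 0.000307) and -1.04 (adjusted p = 0.00862). Slc13a2, a citrate carrier, differed by 1.09 ± 0.29 (adjusted p = 0.0227) and Cyp2c29, a cytochrome P450, by -2.10 ± 0.61 (adjusted p = 0.0347), the latter by -1.41 (adjusted p = 0.0589) without DKO 3 and DKO 4. Gsdmc4, one of a cluster of similar gasdermin genes, differed by -1.28 ± 0.39 (adjusted p = 0.0412). Of 12 refits that each left out 1 sample, the call ended in 9 for Slc5a8, 8 for Slc6a20a, 2 for Slc13a2, 7 for Cyp2c29 and 10 for Gsdmc4. The highest adjusted p was 0.0983 for Slc5a8 without control 2, and without control 3 it was 0.112 for Slc6a20a, 0.0702 for Slc13a2, 0.0966 for Cyp2c29 and 0.119 for Gsdmc4. Without DKO 4, the calls of Slc5a8 and Gsdmc4 were firmer, with adjusted p of 0.00194 and 0.00443. Of 128 called genes followed through the refits, 18 lost the call in at least 1. Paqr5 and C4bp, under 0.5 CPM in every DKO sample, passed the filter on low values only through the 5 controls. They were called in the 7 refits that tested them, but none of those left out a control. Their calls were therefore not checked against the loss of a control. The remaining genes were called in all 12.

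DKO samples varied more than controls. The median SD of a gene on the log2 scale was 0.153 in controls and 0.192 in DKO samples, and 67.8% of genes varied more in DKO samples. Without DKO 3 and DKO 4 the DKO median was 0.160, and 52.6% of genes varied more. Genes at least 1 from the control mean on the log2 scale numbered 16 to 183 in a control and 181 to 868 in a DKO sample, with 743 in DKO 3 and 868 in DKO 4. Each control was set against the other controls. In DKO samples this distance includes the difference between the groups, so it is not a measure of spread among them. The replication list averaged -0.78 to -0.36 in DKO samples and -0.09 to 0.09 in controls, so that its fall was seen in every DKO sample. Xenobiotic phase I enzymes averaged -1.48 in DKO 4, -0.55 in DKO 3 and -0.24 to 0.19 in the other DKO samples, against -0.46 to 0.30 in controls.

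**Figure D4:**
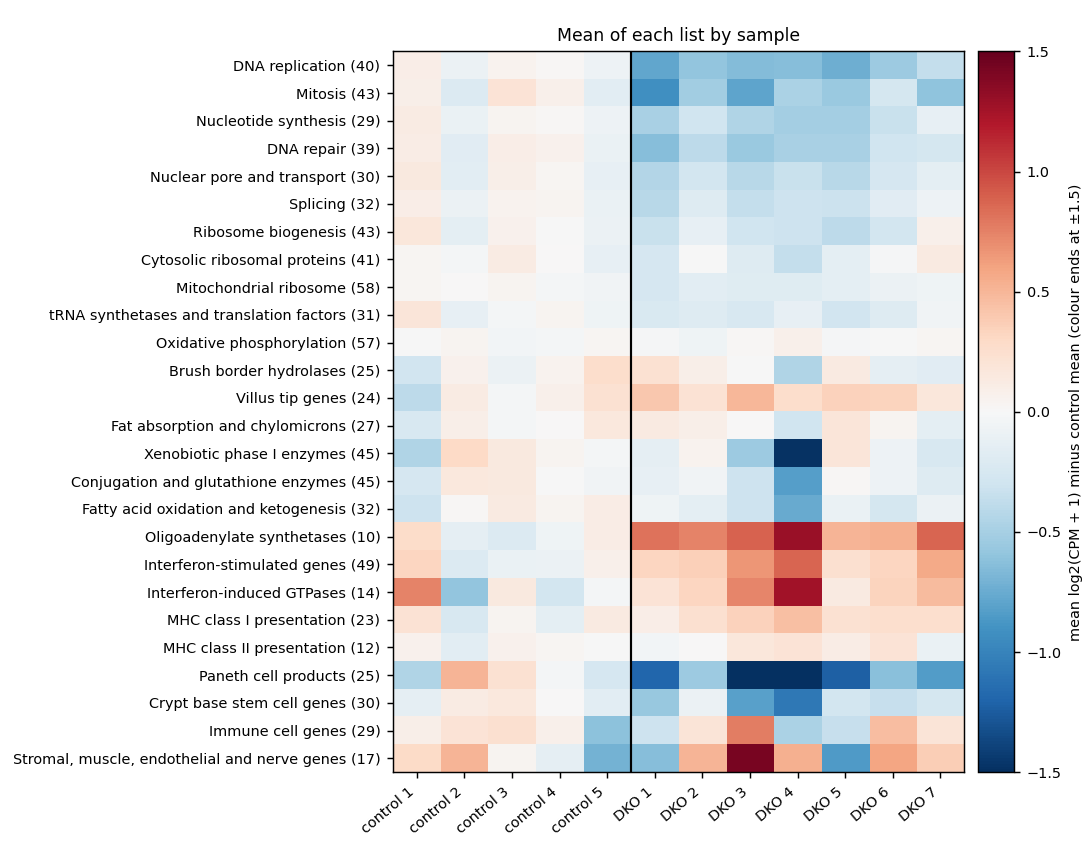
Mean deviation of each gene list from the control mean (log2 scale) in each of the 12 samples, red for higher and blue for lower, with colour limits at 1.5 and tested members in brackets. Replication and mitosis are low in all DKO samples. DKO 3 and DKO 4 are the lowest samples in the Paneth cell and xenobiotic lists, and DKO 3 is the highest in the stromal list.

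A small set of genes separated DKO 5 and DKO 6 from the other DKO samples. Over all genes the pair was not close: on the second principal component (18.2% of the variance) DKO 5 lay at -27.1 and DKO 6 at 3.07. In 8 of 13601 tested genes, the 5 other DKO samples all lay at least 0.5 on the log2 scale beyond the 5 controls and DKO 5 and DKO 6. These genes were picked by this pattern after their values were seen, and no count for other splits of the DKO samples is given here. Zbtb16, a zinc finger transcription factor induced by glucocorticoids, read 0.903, 0.339, 0.518, 0.636 and 1.59 CPM in controls, 1.01 and 1.05 CPM in DKO 5 and DKO 6, and 14 to 54.4 CPM in the other DKO samples. Fkbp5, a chaperone of steroid receptors, read 52.3, 19.1, 24.9, 47.6 and 82.5 CPM in controls, 21.5 and 32.7 CPM in DKO 5 and DKO 6, and 272 to 479.9 CPM in the others. Usp2 and N4bp2l1 were the other higher genes, and Arntl, Susd2, Ceacam10 and Dab1 the lower ones. Arntl, the clock activator Bmal1, read 40.1, 52.0, 48.1, 45.5 and 36.9 CPM in controls and 15.2, 20.9 and 36.8 CPM in DKO samples, a difference of -0.94 ± 0.21 (adjusted p = 0.00804). Dbp, a clock output factor, differed by 1.19 ± 0.36 (adjusted p = 0.0418) and Pfkfb3, a regulator of glycolysis, by 1.13 ± 0.31 (adjusted p = 0.0244). By animal-number range, DKO 5 and DKO 6 share a range with controls 2, 3 and 4, and DKO 1, 2 and 7 with control 1. DKO 3 and DKO 4, which stood apart, share a range that holds no control. Within these ranges Fkbp5 differed by -0.09 and 2.77, Dbp by 0.51 and 1.56, and Arntl by -0.39 and -1.20. Among interferon-related genes, Slfn5 differed by 1.64 and 0.42, Bst2 by 0.80 and 0.35, Herc6 by 1.13 and 0.60, and Ifit1 by 1.14 and 0.90. Oas2 differed more in the second range, by 1.22. The second values rest on control 1 alone. With the range as a block, these interferon-related genes kept their calls. What the ranges stand for is not given in the labels. Zbtb16 differed by 2.82 ± 0.74 (adjusted p = 0.0209), with an adjusted p of 0.0550 without control 3. It differed by 0.44 and 3.81 within the ranges, and lost its call with the range as a block, at 1.74. Without DKO 3 and DKO 4 the differences, none of them called, were 2.44 (adjusted p = 0.0580) for Zbtb16, 1.2 (adjusted p = 0.0754) for Dbp and 1.01 (adjusted p = 0.0628) for Pfkfb3. The call of Dbp ended in 9 of 12 refits, with an adjusted p of up to 0.104 without control 2, and that of Pfkfb3 in 3, up to 0.0679 without control 3. Fkbp5 was not called, at 2.06 ± 0.75 (adjusted p = 0.0832), and passed without DKO 5 (adjusted p = 0.0137) or without DKO 6.

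In several of the large differences that did not pass the test, 1 DKO sample lay far from the others. Cyp2c55, a cytochrome P450, read 56.3, 145, 87.5, 85.5 and 101 CPM in controls and 1.31, 31.2 and 54.7 CPM in DKO samples, with no overlap and DKO 4 lowest. Its difference was -1.83 ± 0.64 (adjusted p = 0.0695), and -1.14 (adjusted p = 0.00517) without DKO 3 and DKO 4. Cyp2c66, another cytochrome P450, differed by -1.45 ± 0.65 (adjusted p = 0.158). It passed without DKO 3 and DKO 4 on the deposited CPM, but not after TMM scaling. Cubn, an endocytic receptor, differed by -1.58 ± 0.53 (adjusted p = 0.0622), and passed without DKO 2, without DKO 4 (adjusted p = 0.0158) or without DKO 5, and at -1.04 (adjusted p = 0.0305) without DKO 3 and DKO 4. Pla2g4c, a phospholipase, read 14 CPM in DKO 4, differed by -1.75 ± 0.57 (adjusted p = 0.0537), and passed without DKO 4 (adjusted p = 0.00287) and without DKO 3 and DKO 4, at -2.13 (adjusted p = 0.00547). Lrg1 and Saa1, acute phase genes, read 88.1 and 39.1 CPM in DKO 4, and differed by 1.24 ± 0.76 (adjusted p = 0.311) and 1.57 ± 0.72 (adjusted p = 0.168). Lrg1 differed by 0.34 (adjusted p = 0.507) without DKO 3 and DKO 4.

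**Figure D5:**
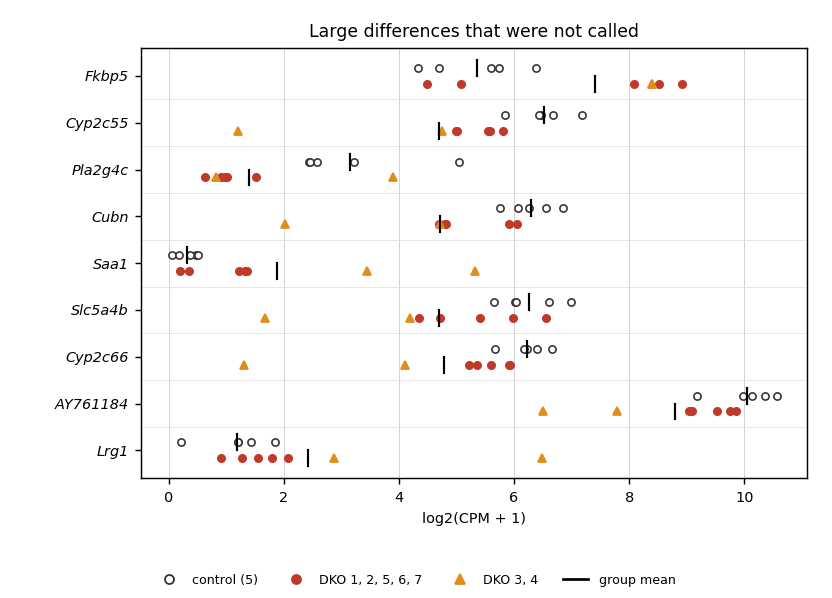
Level in each sample of large differences that did not pass the test, in log2(CPM + 1), with open circles for controls, filled circles for DKO samples, triangles for DKO 3 and DKO 4, and bars for group means. DKO 4 is the lowest or highest DKO sample for Cyp2c55, Cubn, Pla2g4c, Cyp2c66 and Lrg1.

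The CG content of promoters was counted as a further description. The median number of CG dinucleotides in the 300-base promoter was 20 over all tested genes, 5 for the 25 largest falls (20 with a sequence) and 6 for the 25 largest rises (19 with a sequence). Over all genes called lower (1321 with a sequence) it was 21, and over all genes called higher (315 with a sequence) 16. The low medians thus belong to the genes picked for the largest differences, not to the called lower genes as a whole. The median was 24 for called replication genes and 24 for called mitosis genes. This is a description of RefSeq sequence, without a test.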

How the data were processed

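The authors deposited one table of CPM values (counts per 1000000 reads in genes) for the 12 samples. The submitters' processing notes list featureCounts 1.6.2, STAR, DESeq2, bedtools 2.27.1, SAMtools 1.9 and FastQC 0.11.5 with the mouse build mm9, but give no roles. The strand setting of the counting is not stated, so whether reads of a gene and of its antisense neighbour were separated is unknown. CPM came out as whole reads for 100% of values (tolerance 0.05 reads), so depth is known. The 17294 gene rows hold 24 date-like names and 2 repeated names.

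Genes with at least 0.5 CPM in 5 samples were tested two-sided with limma 3.58.1 (R 4.3.3) on log2(CPM + 1), which understates changes of low genes, with Benjamini-Hochberg adjustment over all tested genes and a threshold of 0.05. The scripts were tested on simulated data. No pair of the 31 pairs of samples within a group agreed within sampling noise (variance 9.83 to 148 times sampling). Alternatives were another pseudocount and filters, TMM scaling, edgeR 4.0.16 and DESeq2 1.42.0 on recovered reads, blocks, and samples left out. On recovered reads edgeR called 1748 genes. P-values set the difference between the groups against the spread between these samples. The main fit had no term for the range of animal numbers.

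Named genes were the targeted genes, the 25 largest called rises and falls with groups that did not overlap and at least 2 CPM in the higher group, the 10 largest gains and losses of CPM, the 10 highest statistics each way, the 10 largest uncalled differences and up to 4 called members per list. Of the gene list entries, 2435 of 2575 matched the table. RefSeq names matched 16717 symbols. The gene lists and the genes shown were chosen with earlier results of these data known. Some genes that the rule names are not reported here.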

Additional observations from a re-analysis of the deposited data

Results flagged for a closer look

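Of 276 combinations of a group and a gene followed across the alternatives, 23 had 1 sample whose gap to its nearest neighbour was wide against the range of the group. In unselected groups, chance alone would mark about 1 in 20. These genes were picked partly for large differences and share the same samples, so the count cannot be set against that rate. DKO 4 was the highest of its group for Ncald in DKO 4 (13.4 CPM, nearest 9.34), Gsdmc2 in DKO 4 (37.6 CPM, nearest 13.0), Pla2g4c in DKO 4 (14 CPM, nearest 1.88), Lrg1 in DKO 4 (88.1 CPM, nearest 6.34), Gsdmc4 in DKO 4 (106 CPM, nearest 35.8) and Mars in DKO 4 (65.3 CPM, nearest 52.4). It was the lowest for Cpt1a in DKO 4 (123 CPM, nearest 179), Cyp2c55 in DKO 4 (1.31 CPM, nearest 25.8), Cubn in DKO 4 (3.08 CPM, nearest 24.9), Cyp2c66 in DKO 4 (1.49 CPM, nearest 16.3) and Ccnd2 in DKO 4 (49.9 CPM, nearest 132). Among the other DKO samples, the highest were Mcm6 in DKO 7 (135 CPM, nearest 97.2) and Mcm7 in DKO 7 (71.9 CPM, nearest 58.7), and the lowest were Spry4 in DKO 5 (0.548 CPM, nearest 1.77), Enpp7 in DKO 7 (190.4 CPM, nearest 331) and Mthfd2 in DKO 5 (15.3 CPM, nearest 19.5). Among controls, the highest were Slfn5 in control 1 (10.4 CPM, nearest 3.72) and Ffar2 in control 2 (5.65 CPM, nearest 3.29), and the lowest were Mettl7b in control 1 (25.5 CPM, nearest 33.4), Slc28a2 in control 1 (39.3 CPM, nearest 77.9), Zg16 in control 2 (757 CPM, nearest 876), Pkp1 in control 5 (56.1 CPM, nearest 70.6) and Cyp2c29 in control 1 (5.68 CPM, nearest 23).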

How the results depend on the processing

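The main counts were 2035 called, 394 higher and 1641 lower genes. Higher genes numbered 660 after TMM scaling, 667 in edgeR, 1040 in DESeq2 and 596 after TMM scaling without DKO 3 and DKO 4 (an alternative chosen after seeing the data). Lower genes numbered 1081 in edgeR. Both count tools also changed the test. The cause was not tested. With the replicate number as a block, 947 genes were called (119 higher, 828 lower) and list members called went from 534 to 332, but same-numbered samples did not deviate together (correlations -0.20 to 0.20), so the numbers do not pair the samples. Leaving out 1 sample gave 1222 to 2186 called, 225 to 435 higher and 997 to 1817 lower genes, and 371 to 572 list members. Counts moved by over 1.5 times without control 3 (1222 called, 225 higher, 997 lower), control 4 (1344 called, 234 higher) and control 1 (259 higher). The ratio of the DKO to the control spread was 1.25, and 1.04 without DKO 3 and DKO 4. Of 128 called genes followed, calls ended for 7 after TMM scaling, 7 in edgeR, 4 in DESeq2, 10 with the animal-number range as block, 20 with the replicate block and 7 without DKO 3 and DKO 4, and none changed direction. Genes under 5 CPM varied most, with a median SD of 0.243 in controls, against 0.105 at 50 CPM or more.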
